A study of Mus musculus with 24 samples.

Results

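H3K27 acetylation was compared between mouse forelimb buds that lack Sonic hedgehog and NIH3T3 fibroblasts that received no Hedgehog agonist, to ask which promoters and distal elements carry the mark in both cell systems when the pathway is not stimulated and which carry it in 1 system only. The members were the 43916 peaks of the Shh-/- limb list and the 91023 peaks of the NIH3T3 control list, together 134939 of the 368383 peaks in the 7 peak lists of the series. They come from 7 of 24 libraries. A peak was called shared when it had at least 1 bp in common with a peak of the other list, and limb-only or NIH3T3-only when it had none.

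The limb group was 2 ChIP libraries and 1 input library from Shh-/- forelimb buds at E10.5 (32 to 35 somites) on a Swiss Webster background, with 400000 cells per ChIP. By the study's methods, buds of several embryos were pooled, so the chromatin comes from mesenchyme, ectoderm, vessels and blood together. The fibroblast group was 2 ChIP libraries and 2 input libraries of NIH3T3 cells, an immortal line derived from mouse embryo fibroblasts, with 1000000 cells per ChIP. Its label reads as a vehicle (DMSO) control with LIF for 48 hours, in medium with 0.5% serum. LIF is not described in the protocols used here. The limb was probed with a Diagenode antibody and the fibroblasts with an abcam antibody against the same mark. Antibody, cell number, input, length of the list and cell system differ together between the groups and cannot be told apart. Only 1 peak list per group of 2 ChIP replicates was used here, so every value below describes 1 list per group, has no replicate error and was not tested.

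H3K27ac is an acetyl mark on histone H3 that lies around active promoters and active distal enhancers. Without a Hedgehog ligand, the GLI proteins act mainly as repressors of their target genes, and the limb bud forms from mesenchyme patterned by transcription factors such as those of the Hox, Tbx, Msx and Lhx families. Fibroblast lines such as NIH3T3 keep the Hedgehog response machinery and lay down collagen-rich matrix under the control of AP-1, YAP and TEAD factors.

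The sequences below show examples of 2 motifs in system-specific distal peaks. They are the 3 best-ranked limb-only distal peaks with the homeodomain core TAATTA in the 300 bp at the peak centre, and the 3 best-ranked NIH3T3-only distal peaks with the AP-1 site TGANTCA there, leaving out stretches in exons or beyond the peak's edge. Each is a 120 bp stretch of the forward strand of GRCm38 around the match, with every match to that motif on either strand in capitals. Stretch limb-only 3 also held 1 AP-1 site, left in lower case, the other 2 limb-only stretches held 0, and the homeodomain core was in 0 of the 3 NIH3T3-only stretches. The limb-only stretches lie at chr17:17486622-17486741 in an intergenic peak of rank 120 nearest to Lix1, at chr8:91949362-91949481 in an intergenic peak of rank 177 nearest to Irx3, and at chr13:15342785-15342904 in an intergenic peak of rank 246 nearest to Gli3.
limb-only 1: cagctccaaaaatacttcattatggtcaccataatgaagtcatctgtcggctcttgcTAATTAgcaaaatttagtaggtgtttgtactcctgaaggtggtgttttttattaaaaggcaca
limb-only 2: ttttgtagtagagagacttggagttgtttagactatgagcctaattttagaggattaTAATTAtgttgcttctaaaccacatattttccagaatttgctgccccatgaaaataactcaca
limb-only 3: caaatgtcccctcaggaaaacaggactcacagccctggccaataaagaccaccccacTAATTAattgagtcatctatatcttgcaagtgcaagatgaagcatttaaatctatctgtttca
The NIH3T3-only stretches lie at chr12:81748133-81748252 in an intronic peak of rank 103 nearest to Map3k9, at chr1:86623105-86623224 in an intergenic peak of rank 120 nearest to Cops7b, and at chr6:137559699-137559818 in an intronic peak of rank 156 nearest to Eps8.
NIH3T3-only 1: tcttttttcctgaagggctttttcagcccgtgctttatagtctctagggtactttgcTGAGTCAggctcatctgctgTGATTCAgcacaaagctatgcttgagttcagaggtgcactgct
NIH3T3-only 2: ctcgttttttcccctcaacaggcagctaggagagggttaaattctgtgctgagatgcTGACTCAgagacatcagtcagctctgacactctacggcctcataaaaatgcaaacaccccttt
NIH3T3-only 3: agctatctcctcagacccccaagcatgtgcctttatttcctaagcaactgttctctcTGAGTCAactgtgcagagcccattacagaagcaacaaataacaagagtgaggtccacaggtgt
Among the 50 best-ranked limb-only distal peaks 9 held the homeodomain core in that window, and among the 50 best-ranked NIH3T3-only distal peaks 7 held the AP-1 site, so these stretches illustrate the motifs and are not typical of the peaks.

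The 2 systems held most limb promoter peaks in common and few distal peaks. A promoter peak overlapped the window from 2 kb before to 1 kb after an annotated transcription start, and all other peaks were called distal. Of 14739 limb promoter peaks, 80.6% (95% Wilson interval 79.9 to 81.2) were shared with NIH3T3 cells, whereas 20.0% (19.6 to 20.5) of 29177 limb distal peaks were shared. The NIH3T3 list gave the same order at lower levels, with 44.0% (43.4 to 44.7) of 23659 promoter peaks and 7.22% (7.03 to 7.42) of 67330 distal peaks found in the limb list. Over all peaks 40.3% of the limb list and 16.8% of the NIH3T3 list were shared. The NIH3T3 list is the longer one, and 17718 limb peaks met 15279 NIH3T3 peaks. These intervals cover counting error only, and neighbouring peaks are not independent.

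The lists also differ in extent. Limb peaks covered 19.7 Mb, 0.723% of the genome, with a median width of 250 bp, and NIH3T3 peaks covered 60.4 Mb, 2.21% of the genome, with a median width of 350 bp. The bases in common were 45.3% of the limb list and 14.8% of the NIH3T3 list. Over promoter and distal peaks together, 7.58% of limb-only and 6.23% of NIH3T3-only peaks lay within 500 bp of a peak of the other list. Such near misses made up a larger part of the unshared promoter peaks than of the unshared distal ones. With a gap of up to 500 bp, sharing rose from 80.6% to 84.5% of limb promoter peaks and from 44.0% to 55.1% of NIH3T3 promoter peaks. Shared peaks were wider than unshared ones. Median widths were 300 bp for shared against 200 bp for unshared limb distal peaks, and 650 bp against 250 bp for NIH3T3 distal peaks.

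Sharing followed the strength of the peak within its own list. Among limb promoter peaks 92.9% were shared in the best-ranked 10% of the list and 65.8% in the last 10%, and for NIH3T3 promoter peaks the shares were 80.8% and 7.58%. Distal peaks of the limb fell from 41.4% to 15.2%, and those of NIH3T3 cells from 27.5% to 3.32%. The best-ranked limb distal peaks were thus still shared less often than the worst-ranked limb promoter peaks. With the NIH3T3 list shortened to its 43916 best-ranked peaks, limb sharing was 76.7% at promoters and 16.0% at distal peaks, and NIH3T3 sharing was 57.4% and 12.0%. When at least 50% of a peak had to be covered, NIH3T3 sharing was 23.5% at promoters and 3.95% at distal peaks.

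**Figure D1:**
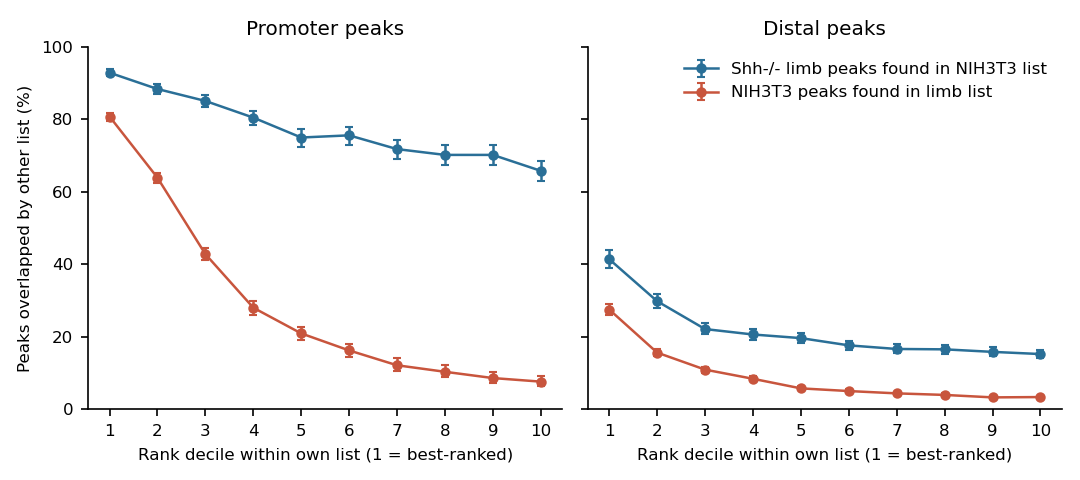
Share of peaks (%, vertical axis) overlapped by the other list, by rank decile within their own list (horizontal axis, 1 for the best-ranked 10%), for promoter peaks (left) and distal peaks (right). Points are shares of 1 list per group and bars are 95% Wilson intervals. Limb promoter peaks (blue) stay between 92.9% and 65.8%, while distal peaks of both lists lie at 41.4% or below in every decile.

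Among 21911 protein-coding genes, 8379 had an H3K27ac peak at the promoter in both lists (38.2% of all genes), 589 in the limb list only (2.69%), 3234 in the NIH3T3 list only (14.8%) and 9709 in neither (44.3%). A gene counted for a list when a peak of that list touched the promoter window of any of its annotated starts. Peaks of different lists could thus touch different starts of a gene. Genes and promoters of genes are called limb-only or NIH3T3-only below by this rule. The peak at such a gene can still be a shared peak, overlapped by the other list outside the gene's windows. For distal peaks, each was given to the nearest protein-coding start within 100 kb. This placed 13434 limb-only and 44954 NIH3T3-only distal peaks, so 23.0% of the system-specific distal peaks near genes were of the limb. More limb-only than NIH3T3-only distal peaks were found at 10.3% of genes, and the opposite at 29.3%. The counts of each gene list below are read against these percentages. Of 15 housekeeping genes, 14 had a promoter peak in both lists, and B2m, a subunit of class I histocompatibility molecules, had one in NIH3T3 cells only. More NIH3T3-only than limb-only distal peaks lay near 10 of the 15 and the opposite held for 0, so such a lean also occurs outside fibroblast genes.

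The limb list was set apart by limb mesenchyme transcription factors. Of 32 such genes, 15 had a promoter peak in both lists, 13 in the limb list only, 2 in the NIH3T3 list only and 2 in neither, so 13 of 32 stand beside 2.69% of all genes. More limb-only than NIH3T3-only distal peaks lay near 23 of the 32 and the opposite held for 7. The genes acetylated at the promoter in the limb alone included Tbx2, Tbx5, Hand2, Msx1, Msx2, Lhx2, Lmx1b, Sall1, Sall3, Sall4 and Alx4. Tbx5, which starts forelimb outgrowth, had a limb promoter peak at rank 17 of the list and 9 limb-only distal peaks against 0 in NIH3T3 cells. Lmx1b, which specifies dorsal limb identity, had 22 against 0. Alx4, a homeodomain factor that limits anterior expression of Shh, had 20 against 0. Shox2, needed for the proximal limb skeleton, was acetylated at the promoter in both systems and still had 19 limb-only distal peaks and 0 NIH3T3-only ones.

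Some of these factors leaned the other way. Prrx1, a mesenchymal homeobox gene, had promoter peaks near the top of both lists, with 39 NIH3T3-only and 4 limb-only distal peaks near it. Twist2, a basic helix-loop-helix factor of mesenchyme, had 30 NIH3T3-only and 11 limb-only ones. Osr1 and Osr2, zinc finger factors of loose connective tissue, had promoter peaks in the NIH3T3 list only, with 47 and 22 NIH3T3-only distal peaks against 3 and 0 limb-only ones. Both promoters had a peak in the WT limb list. Hand1 and Tfap2b had a promoter peak in neither list. Counts of the 32 genes over the 4 promoter states were the same with the NIH3T3 list shortened to the length of the limb list.

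The Hox clusters, whose genes pattern the limb along its axes, differed from each other. Of 20 Hoxa and Hoxd genes, 11 had promoter peaks in both lists, 5 in the limb only (Hoxa9, Hoxa11, Hoxd4, Hoxd10 and Hoxd11), 0 in NIH3T3 cells only and 4 in neither (Hoxa13, Hoxd1, Hoxd12 and Hoxd13). Hoxa10, acetylated in both, stood at percentile 99.6 of the limb list and 41.5 of the NIH3T3 list, where 100 is the best-ranked peak. Hoxd9 stood at 99.8 and 97.2. Hoxa2 to Hoxa7 all had promoter peaks in both systems. Hoxd12 and Hoxd13, the most posterior HoxD genes, had a promoter peak in the WT limb list. Of 19 Hoxb and Hoxc genes, 7 were limb-only (Hoxb2 to Hoxb8), 3 were in both (Hoxc4, Hoxc5 and Hoxc6) and 9 were in neither. The 3 Hoxc genes ranked low in NIH3T3 cells, at percentiles 37.6, 44.7 and 8.17 against 96.5, 94.0 and 98.0 in the limb. With the shortened NIH3T3 list all 3 became limb-only, so 10 of 19 were limb-only and 0 were in both. Neighbouring Hox promoters can lie under 1 peak, so these genes are not independent.

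Limb signalling genes were divided between shared and limb-only. Of 24, 10 had promoter peaks in both lists, 5 in the limb only and 0 in NIH3T3 cells only, with 9 in neither. The limb-only ones were the BMP ligands Bmp4 and Bmp7, the Wnt antagonist Dkk1, the retinoic acid receptor Rarb and the Eph receptor Epha7. Distal peaks near the 24 genes were 131 limb-only and 140 NIH3T3-only. More limb-only ones lay near 10 genes and the opposite held for 7. Fgf10, the mesenchymal ligand that maintains outgrowth, had promoter peaks in both lists but 15 limb-only against 1 NIH3T3-only distal peak. In the other direction, Grem1 had 7 limb-only and 26 NIH3T3-only distal peaks, and Epha4 had 0 and 17. The ectodermal ligand Fgf8 had neither a promoter peak nor a system-specific distal peak. Among 10 chondrogenic genes, Sox6 and Col2a1 had limb-only promoter peaks, with 11 against 0 and 8 against 1 system-specific distal peaks. Sox9, the master regulator of cartilage, was at percentile 98.0 of both lists, with 3 limb-only and 23 NIH3T3-only distal peaks.

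The receptors and transducers of the Hedgehog pathway were acetylated in both systems. Of 18 pathway genes, 12 had a promoter peak in both lists, 0 in the limb only, 1 in NIH3T3 cells only (Kif7, a kinesin of the primary cilium, at percentile 37.8) and 5 in neither. Smo, the transducer of the signal, stood at percentile 99.0 in the limb and 100.0 in NIH3T3 cells, and the transcription factor Gli2 at 99.2 and 93.2. Ptch1, both receptor and target, stood at 92.0 and 90.3. It had 5 limb-only and 0 NIH3T3-only distal peaks. Gli3, the main GLI repressor of the limb, had 19 limb-only distal peaks and 1 NIH3T3-only one. Gas1, a co-receptor, had 17 limb-only and 67 NIH3T3-only ones, and the co-receptors Cdon and Boc had 15 against 11 and 14 against 13.

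The genes without acetylation at the promoter in either list included Shh, the targets Gli1 and Hhip, and Gpr161. A promoter peak of Gli1 was present in both lists with an active pathway, those of WT limb buds and of NIH3T3 cells given 400 nM purmorphamine, an agonist of Smo. The same held for Grem1, a BMP antagonist expressed in limb mesenchyme. Of the 9709 genes with no promoter peak in either Hedgehog-off list, 22 (0.227%) had promoter peaks in both of the Hedgehog-on lists, Gli1 and Grem1 among them. Hhip had a promoter peak in none of the 4 lists.

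**Figure D2:**
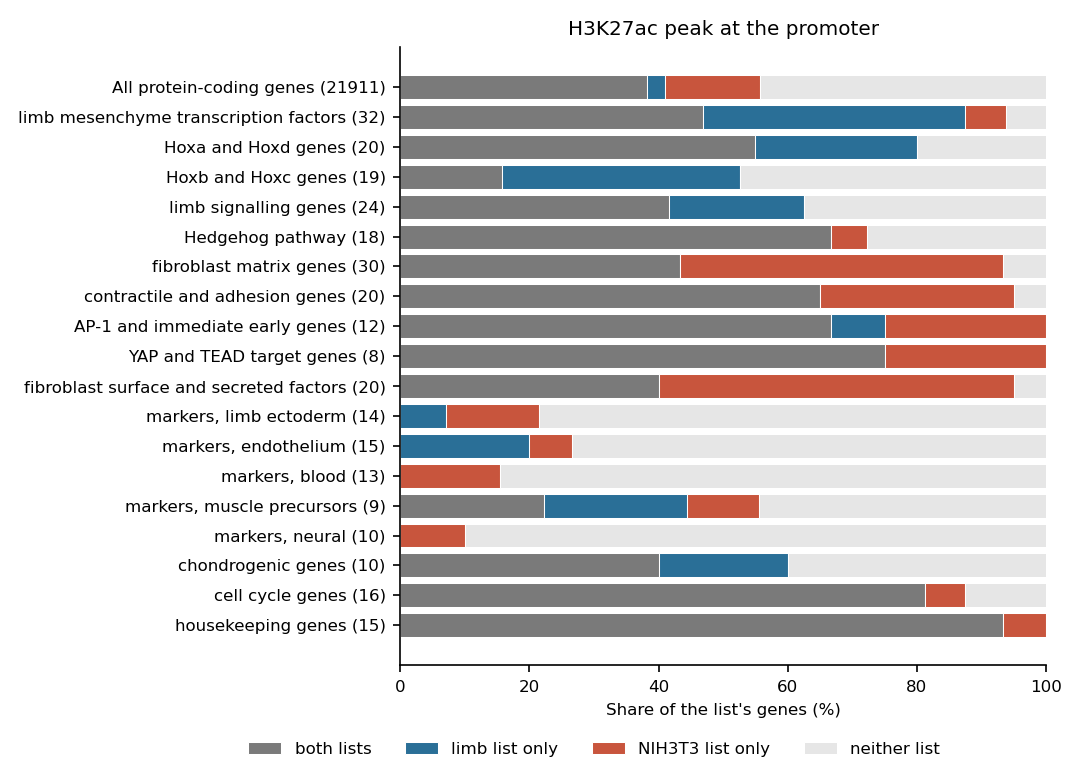
Share of genes (%, horizontal axis) with an H3K27ac promoter peak in both lists, in the Shh-/- limb list only, in the NIH3T3 control list only or in neither, for all 21911 protein-coding genes (top bar) and 18 gene lists, with the number of genes in parentheses. Limb-only bars are widest for limb transcription factors and Hoxb and Hoxc genes, and NIH3T3-only bars for matrix genes and for surface and secreted factors.

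The NIH3T3 list was set apart by matrix and secreted products. Of 30 fibroblast matrix genes, 13 had promoter peaks in both lists, 15 in NIH3T3 cells only, 0 in the limb only and 2 in neither, beside 14.8% NIH3T3-only over all genes. More NIH3T3-only than limb-only distal peaks lay near 29 of the 30. The NIH3T3-only promoters included Col1a1, Col5a1 and Col6a1, which encode fibrillar and beaded collagens, the collagen cross-linking enzyme Lox, and Postn, Tnc, Thbs1, Thbs2, Sparc and Eln. The metalloproteinase inhibitor Timp3 had 122 NIH3T3-only distal peaks and the proteoglycan Dcn had 81, each against 0 in the limb. For Thbs2 the counts were 50 and 3, and for Col5a1 46 and 0. Col1a2 and Col3a1 had promoter peaks in both lists, with 22 and 27 NIH3T3-only distal peaks against 4 and 3 limb-only ones.

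Contractile, surface and signalling genes of fibroblasts showed the same direction. Of 20 contractile and adhesion genes, 6 had NIH3T3-only promoter peaks (Acta2, Tagln, Tpm2, Tgfb1i1, Cav1 and Cd44), 0 had limb-only ones and 13 had both. Of 20 surface and secreted factors, 11 were NIH3T3-only, among them Thy1, S100a4, Il6, Ccl2, Lif and Ly6a, 0 were limb-only and 8 were in both. Pdgfra and Pdgfrb, the receptors for platelet-derived growth factor, were in the 8 shared ones. Cxcl12, a chemokine, was also shared at the promoter, with 67 NIH3T3-only and 2 limb-only distal peaks. Of 8 YAP and TEAD targets measured, 6 were shared and 2, Ankrd1 and Axl, were NIH3T3-only.

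The AP-1 genes themselves were mostly acetylated in both systems. Of 12 AP-1 and immediate early genes, 8 had promoter peaks in both lists, 3 in NIH3T3 cells only (Fosl1, Atf3 and Ier3) and 1 in the limb only (Fosb). More NIH3T3-only than limb-only distal peaks lay near 8 of the 12, the opposite held for 1 (Jund, with 4 limb-only and 0 NIH3T3-only), and 3 had equal counts. The same lean was found at 10 of 15 housekeeping and 12 of 16 cell cycle genes, so it was not particular to this list. Jun had 25 NIH3T3-only and 1 limb-only distal peak, Fosl2 had 28 and 1, and Myc had 28 and 2, while Fos had 2 and 2. Of 16 cell cycle genes 13 were shared, the inhibitor Cdkn1a was NIH3T3-only, and the inhibitors Cdkn2a and Cdkn2b had a promoter peak in neither list.

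**Figure D3:**
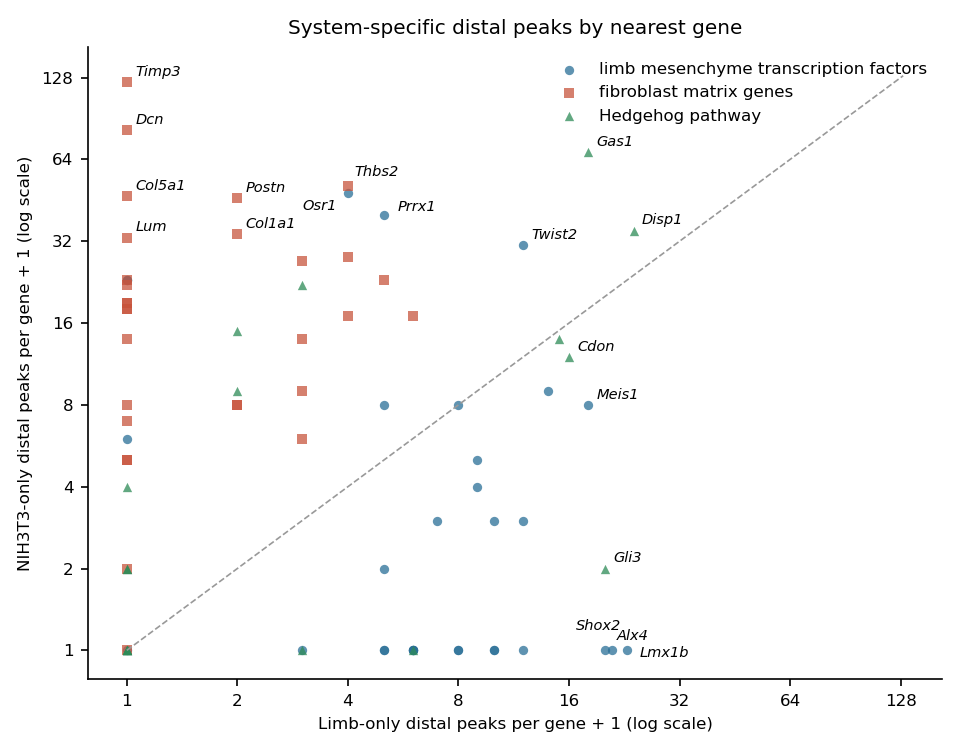
Limb-only distal peaks (horizontal axis) and NIH3T3-only distal peaks (vertical axis) per gene, each plus 1 on a log scale, for limb mesenchyme transcription factors (circles), fibroblast matrix genes (squares) and Hedgehog pathway genes (triangles), with equal counts on the dashed line. Timp3 and Dcn (122 and 81 NIH3T3-only peaks, each with 0 limb-only) and Lmx1b, Alx4 and Shox2 (22, 20 and 19 limb-only peaks, each with 0 NIH3T3-only) lie at opposite edges. Disp1, a Hedgehog pathway gene, had the most limb-only peaks of the genes drawn (23), with 34 NIH3T3-only ones.

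Markers of cell types other than mesenchyme were rarely acetylated. None of 14 limb ectoderm, 15 endothelium, 13 blood and 10 neural markers had a promoter peak in both lists. In the limb list only, the promoter was acetylated at 1 ectoderm marker (Grhl2), at 3 endothelial ones (Pecam1, Erg and Egfl7) and at 2 of 9 muscle precursor markers (Pax3 and Lbx1, at percentiles 3.79 and 24.6). The embryonic globin genes Hba-x, Hbb-bh1 and Hbb-y, the erythroid factor Gata1 and the keratins Krt5 and Krt14 had none in either list. In NIH3T3 cells, promoter peaks were found at 2 of the 14 ectoderm markers (Krt8 and Cldn6), at Flt1 of the endothelium list, at Csf1r and Runx1 of the blood list and at Met of the muscle list, among others. Runx1 and Met stood at percentiles 99.8 and 99.3. The part of each cell type in the limb list was not tested.

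Ranked by strength, the unshared promoter peaks of the limb were led by Tbx5. After Tbx5 at rank 17 (chr5:119834700-119840949, largest log2 ratio of ChIP to input 7.04) came Tenm3 at rank 37, Mboat2 at 107, Sox11 at 145 and Prdm16 at 204. Tenm3 encodes a teneurin of the cell surface, Sox11 a transcription factor of progenitor cells and Prdm16 a chromatin regulator. All 10 of the best-ranked limb-only promoter peaks were also in the WT limb list and none was in the purmorphamine list. The nearest NIH3T3 control peak lay 160351 bp from the Tbx5 peak and 858601 bp from the Sox11 peak.

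The best-ranked peak of the whole NIH3T3 list was absent from the limb. It was 19500 bp wide (chr4:89045750-89065249, largest log2 ratio 6.16), covered the start of Wincr1, and lay 71701 bp from the nearest limb peak. The next unshared promoter peaks were at Mir193a (rank 12), at Lncpint (18) and at 2310001H17Rik (19), followed by Tspan11 (24) and AL805899.1 near Ifne (25). Ptgfr, a prostaglandin receptor, Igfbp6, a binding protein of insulin-like growth factors, and Tspo, a mitochondrial protein, were further down, at ranks 56, 59 and 72. Each of the 10 best-ranked unshared promoter peaks was also in the purmorphamine list, and 1 of them (Ptgfr) was in the WT limb list.

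Among unshared distal peaks, the limb list was led by an intronic peak of Ptk7 (rank 22, chr17:46617400-46620249), a Wnt co-receptor that acts in planar polarity. Intronic peaks of Kifap3 (rank 34, 66316 bp from its start) and Cped1 (rank 51) followed, then intergenic peaks nearest to Tm2d1 (84) and Tanc1 (85). The NIH3T3 list was led by an intergenic peak at chr1:159390500-159397149 (rank 7, 6650 bp wide) nearest to Tnr, and by one at chr1:45017650-45024599 (rank 8) whose nearest coding start was Col3a1 at 290414 bp. All 10 leading limb-only distal peaks were in the WT limb list and all 10 leading NIH3T3-only distal peaks were in the purmorphamine list. Of the latter, 3 were in the WT limb list.

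Some neighbourhoods collected many unshared peaks. Mecom, a zinc finger transcription factor gene, had the most limb-only distal peaks (115, over 49200 bp, against 27 NIH3T3-only ones). Usp29 had 57 against 0, the zinc finger homeobox gene Zfhx3 52 against 23, Lix1 38 against 0 and the E protein gene Tcf4 36 against 7. On the fibroblast side, Tnr had 182 over 148850 bp, followed by Timp3 with 122, Lnx1 with 105, the growth-arrest gene Gas7 with 103 and the adhesion adaptor Nedd9 with 86, with at most 2 limb-only peaks near any of these 5. The count depends on how finely a domain was cut into peaks and on how far the next gene lies.

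Peaks closer than 12500 bp were then joined into regions, which gave 17923 regions in the limb and 19949 in NIH3T3 cells. Of these, 8662 and 11095 shared no base with a peak of the other list. Among these unshared regions, the limb one with the most peak sequence lay at chr17:17425000-17523399 over Lix1 and Lnpep (41 peaks, 29900 bp of peaks), then came one in Gpc3 on chromosome X (21 peaks, 24500 bp), a glypican that restrains body growth, one nearest to Actrt2 (28 peaks, 23900 bp) and the HoxB cluster from Hoxb2 to Hoxb8 (chr11:96283550-96355449, 48 peaks, 22500 bp). In the HoxB region 26 of the 48 peaks also carried limb H3K4me2. The largest unshared NIH3T3 regions held more peak sequence. They lay at Bnc1 (chr7:81951050-82122449, 90 peaks, 108750 bp), at Gas7 (chr11:67450600-67678199, 111 peaks, 105950 bp), over Dlgap2 (130 peaks, 88600 bp), nearest to Dkk2 (86 peaks, 71600 bp) and over Thbd, Cd93 and Sstr4 (126 peaks, 69950 bp). At Bnc1 12 of the 90 peaks were in the purmorphamine list, and at Gas7 76 of 111.

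Promoters acetylated in both lists could still differ in rank. Over the 8379 genes the median percentile of the best promoter peak was 80.7 in the limb and 91.2 in NIH3T3 cells, with a Spearman correlation across genes of 0.427, given as a description since genes are not independent. The limb percentile was higher by over 50 points at 36 genes and the NIH3T3 percentile at 953, but these counts move with the length of the lists. With the NIH3T3 list shortened to the length of the limb list they were 167 and 539 of 8179 genes, with medians of 81.0 and 82.2. The largest differences toward the limb were at Pabpc4l (94.0 against 3.40), Hoxc6 (98.0 against 8.17), Prex2 (98.1 against 8.41), Mmp16 (84.2 against 0.651) and Aff3 (98.0 against 17.7). Aff3 also had 18 limb-only distal peaks and 1 NIH3T3-only one. Toward NIH3T3 cells they were at Trim2 (1.25 against 99.1), Trabd2b (1.18 against 98.6), Ppm1h (3.27 against 100.0), the microfibril gene Fbn1 (1.70 against 97.8) and Phlda3 (4.03 against 99.7). Percentiles are relative to each list and are not levels of acetylation.

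The other lists of the series were then laid over the shared and unshared classes. The WT limb list held 49.6% (48.9 to 50.2) of limb-only distal peaks and 2.64% (2.52 to 2.77) of NIH3T3-only distal peaks. The purmorphamine list held 48.5% (48.1 to 48.9) of NIH3T3-only and 4.40% (4.14 to 4.67) of limb-only distal peaks. Among peaks in the better-ranked 50% of their list these were 72.7% and 3.96% for the WT limb, and 73.7% and 5.12% for purmorphamine. By definition a limb-only peak had no base in the NIH3T3 control list, and an NIH3T3-only peak none in the Shh-/- limb list. The low shares in the second list of the other system thus follow in part from the classes and are not a separate result. At promoters the separation was smaller: the WT limb list held 56.7% of limb-only and 14.2% of NIH3T3-only promoter peaks, and the purmorphamine list 12.2% and 71.3%. Each pair of lists also shares its antibody and cell number, so this does not separate the cell system from the ChIP.

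H3K4me2, a mark of active and poised promoters and enhancers, was taken from the Shh-/- limb list. At distal sites it covered 22.8% (21.7 to 23.8) of shared limb peaks, 6.36% (6.05 to 6.68) of limb-only peaks and 2.01% (1.90 to 2.12) of NIH3T3-only peaks. At promoter peaks the shares were 82.9% for shared limb peaks, 41.2% for limb-only and 45.7% for NIH3T3-only. Promoters acetylated in NIH3T3 cells alone thus often carried limb H3K4me2, and distal sites acetylated in NIH3T3 cells alone seldom did. By gene, limb H3K4me2 was present at 99.1% of promoters acetylated in both systems, 85.4% of limb-only ones, 82.7% (81.4 to 84.0) of NIH3T3-only ones and 25.2% of those acetylated in neither.

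H3K27me3, a mark laid down by Polycomb proteins at silenced developmental genes, followed the unshared promoters of both systems. In the limb it covered 5.68% (5.30 to 6.09) of NIH3T3-only promoter peaks and 4.05% (3.39 to 4.83) of limb-only promoter peaks, against 0.564% (0.445 to 0.716) of shared limb promoter peaks. No distal class exceeded 0.547%. By gene, limb H3K27me3 was present at 20.5% (19.1 to 21.9) of NIH3T3-only, 20.2% (17.2 to 23.6) of limb-only and 3.91% (3.52 to 4.35) of doubly acetylated promoters, and at 18.7% of promoters acetylated in neither. The best-ranked NIH3T3-only genes with limb H3K27me3 included Igfbp6, Osr1, Lox, Cavin1, Runx1, Dlx1, Galnt9 and Ppl. The best-ranked limb-only genes with both marks in the limb were Tbx5, Hoxa9, Prdm16, Tmem132c, Hoxd10, Lmx1b, Sox6, Zic2, Lhx2 and Tmem200b. Each mark was counted over all starts of a gene, so the 2 marks need not lie at the same place. The limb-only Prdm16 promoter peak of rank 204, for example, was not overlapped by a limb H3K27me3 peak. In pooled buds, both marks at 1 promoter can also come from different cells. Of the genes in neither list, limb H3K27me3 was carried by all 9 Hoxb and Hoxc genes, 8 of 9 signalling genes, all 9 neural and 8 of 11 ectoderm markers, but by 6 of 11 endothelial markers, 2 of 4 muscle precursor markers, 1 of 11 blood markers and 0 of 2 matrix genes.

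**Figure D4:**
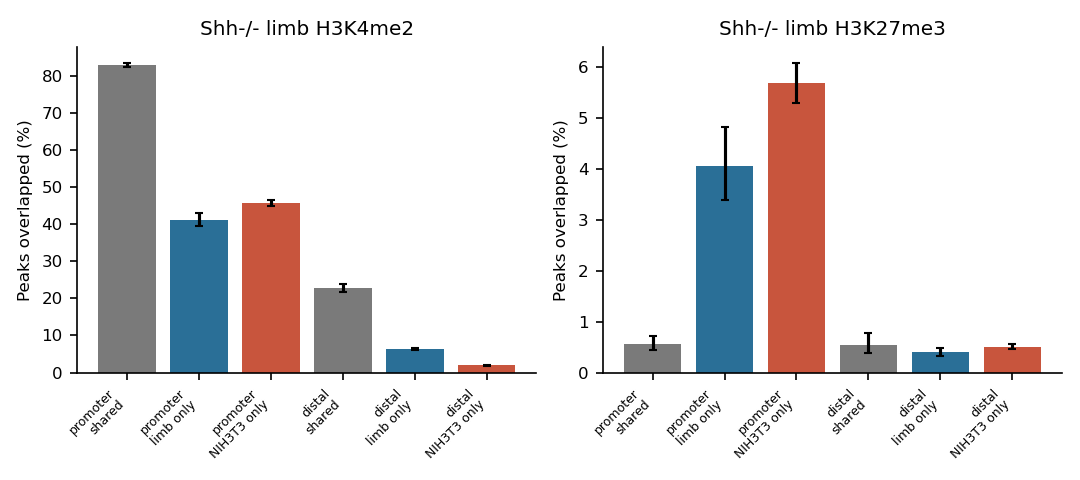
Share of H3K27ac peaks (%, vertical axes, different scales) overlapped by Shh-/- limb H3K4me2 (left) and H3K27me3 (right) peaks, for shared peaks of the limb list (grey), limb-only peaks (blue) and NIH3T3-only peaks (red), at promoters and distal sites, with 95% Wilson intervals. H3K4me2 is highest at shared promoter peaks (82.9%), and H3K27me3 is highest at NIH3T3-only promoter peaks (5.68%) and limb-only promoter peaks (4.05%).

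Sequence composition set shared promoter peaks apart from the other classes. The 300 bp at the centre of shared limb promoter peaks had a median of 60.7% G and C and an observed to expected CpG ratio of 0.720, against 49.0% and 0.343 for limb-only promoter peaks. Distal limb peaks had 47.7% and 0.222 where shared and 43.7% and 0.198 where limb-only. In composition, unshared promoter peaks were thus closer to distal peaks than to shared promoter peaks. Their centres also lay further from the nearest protein-coding start. The median was 1181 bp for limb-only and 316 bp for shared limb promoter peaks, and 734 bp and 413 bp for NIH3T3 ones. Whether this distance accounts for the difference in composition was not tested. The SP and KLF core GGGCGG was found in 44.7% of shared and 21.2% of limb-only limb promoter windows, and in 2.81% of all 300 bp tiles of the genome. The ETS core CCGGAAG was found in 8.98% and 3.98%, with 0.837% of tiles. NIH3T3-only promoter windows, at 49.7% G and C, held these cores in 16.9% and 3.45%.

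At distal sites, limb-only and NIH3T3-only windows differed modestly. The homeodomain core TAATTA was present in 11.3% (10.9 to 11.8) of limb-only and 7.13% (6.93 to 7.33) of NIH3T3-only windows, a difference of -4.21 points (95% interval -4.67 to -3.76). The share of genome tiles was 10.6%, so the limb windows were close to the genome and the fibroblast windows below it. The AP-1 site TGANTCA, which reads the same on both strands, was present in 9.00% of limb-only and 11.8% of NIH3T3-only windows, a difference of 2.81 points (2.36 to 3.26), with 8.84% of tiles. AP-1 was higher in NIH3T3-only windows on all 20 chromosomes with at least 100 peaks of each class, and the homeodomain core was lower on all 20. In 600 bp windows the AP-1 shares were 16.6% and 24.8%, with 17.0% of 600 bp tiles, and the homeodomain shares were 22.2% and 14.2%, with 19.9% of tiles. Shared limb distal windows held the AP-1 site in 10.4% and the homeodomain core in 7.10%.

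Base composition moved with these differences, since median G and C was 43.7% in limb-only and 45.7% in NIH3T3-only distal windows. In windows with 40% to 50% G and C alone, the difference was 2.78 points for AP-1 and -2.37 points for the homeodomain core. The posterior HOX core TTTATNG (17.7% of limb-only and 14.2% of NIH3T3-only windows) and the SOX core AACAAT (18.6% and 15.6%) were also more frequent in limb-only windows, and the ZEB and SNAI type E-box CACCTG (14.4% and 18.1%) in NIH3T3-only ones. Their differences of -3.47, -3.05 and 3.74 points came down to -1.44, -1.14 and 1.93 points in the same band of composition. The GLI core GACCACCCA was rare in both classes, at 0.141% of limb-only and 0.291% of NIH3T3-only windows, with 0.202% of tiles. Its difference was 0.150 points (0.0858 to 0.214), and 0.129 points in the same band of composition. The TEAD core ACATTCC was present in 4.67% and 4.75%, an interval of the difference from -0.236 to 0.400 points. All cores were matched exactly on both strands, and a match is not evidence of binding.

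**Figure D5:**
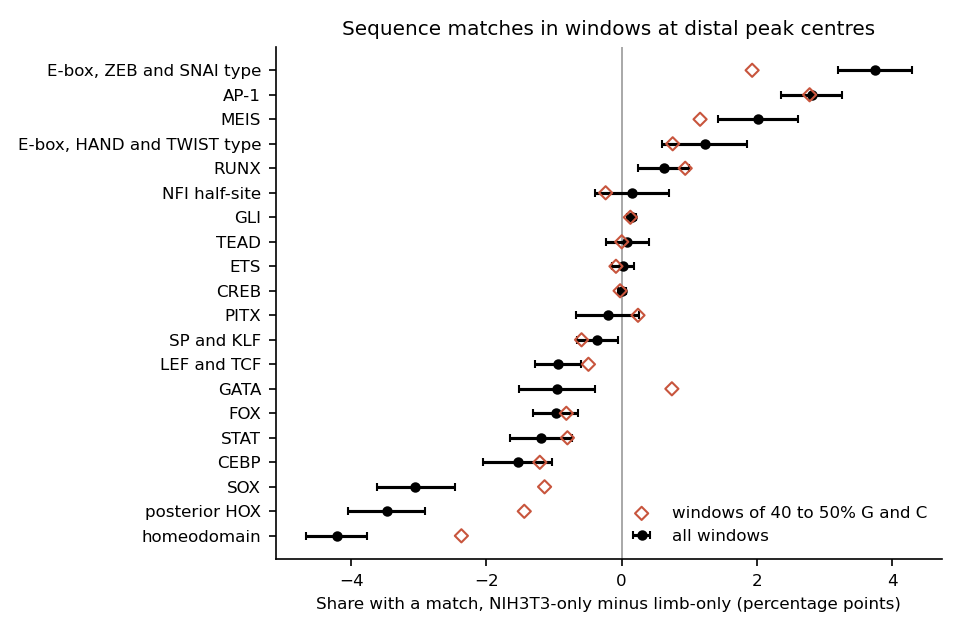
Difference in the share of 300 bp windows with a match, NIH3T3-only minus limb-only distal peaks (percentage points, horizontal axis), for 20 sequence cores (vertical axis). Black points show all windows with 95% intervals, and open diamonds only windows with 40% to 50% G and C. The homeodomain core (-4.21 points) and the AP-1 site (2.81 points) keep their direction in that band. GATA, CREB, PITX, ETS and the NFI half-site change sign, and of these only GATA has an interval over all windows that excludes no difference.

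Chromosomes differed in the balance of unshared peaks. There were 2.89 NIH3T3-only peaks per limb-only peak over the genome, with ratios from 2.05 on chromosome 18 to 4.33 on chromosome 15 among the autosomes and 2.65 on chromosome X. Chromosomes 7, 17 and 19 were also above 4, at 4.28, 4.29 and 4.14. NIH3T3 is an aneuploid line, and the copy number of its chromosomes was not measured here.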

How the data were processed

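Libraries were grouped by their labels. The submitters' processing notes name Bowtie2 2.2.5, limma and the build mm10. By the study's methods, the authors called peaks with CisGenome. The values are relative to input, and how the replicates of a group were combined into its 1 list is not given in the sources used here. For each peak the authors deposited the peak caller's FDR, a q-value, and a score by which peaks are ranked, its highest test statistic of ChIP over input. They also deposited the highest log2 ratio over input, and −log10 of the lowest Poisson p-value. In both lists the deposited scores start at 3.00, while the highest FDR was 0.0673 in the limb and 0.00268 in NIH3T3 cells, so the lists have no common FDR. Depth per library was not readable from these lists, which limits the precision of every count of peaks.

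Unplaced scaffolds, with 34 NIH3T3 peaks, were left out. Coordinates are as deposited. Peaks start on multiples of 50, so they may count from 0 and be 1 base off. No peak ended beyond its GRCm38 chromosome. Overlaps, promoter windows (basic GENCODE vM21), nearest protein-coding starts and exact motif matches were computed in Python 3.11.15 with numpy 2.4.6 and pandas 2.3.3, and the functions were tested on simulated data. Shares carry 95% Wilson intervals, and differences of shares 95% normal intervals. No hypothesis test was run, because each group is 1 list.

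Members and gene lists were chosen with earlier results of these data known. Of 307 entries on 18 lists 305 were found in the annotation. Named items were list members, with those of most unshared distal peaks as examples, the 10 genes with the most limb-only or NIH3T3-only distal peaks, the 10 best-ranked unshared promoter and distal peaks of each list, the 10 shared promoters that differed most in rank percentile each way, and the 5 largest joined regions free of the other list. The genes named for limb H3K27me3 were chosen after their values were seen. Rank percentile is 100 for the best-ranked peak. Other cut-offs are compared in the closing section.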

Additional observations from a re-analysis of the deposited data

How the results depend on the processing

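Of 52 alternative values, 36 moved and 16 did not. A share or difference moved when it left the interval of its main value, and a gene count when it changed over 1.5 times. Shares and counts cannot be negative, so only the AP-1 and homeodomain differences could change sign, and none did. The count of genes with a promoter peak in 1 list only stayed within 1.5 times in all 10 cases (485 to 789 limb-only and 2731 to 4314 NIH3T3-only genes). With at least 50% of a peak covered, sharing was 37.5% of all, 77.7% of promoter and 17.1% of distal limb peaks, and 9.04%, 23.5% and 3.95% of NIH3T3 peaks. With a gap of up to 500 bp it was 44.9%, 84.5% and 24.9% in the limb and 22.0%, 55.1% and 10.3% in NIH3T3 cells, limb H3K27me3 was found at 6.78% of NIH3T3-only promoter peaks and limb H3K4me2 at 1.68% of NIH3T3-only distal peaks. In the better-ranked 50% of both lists, sharing was 47.0% of all limb peaks, 83.1% of limb promoter peaks, 21.4% of all NIH3T3 peaks and 7.95% of NIH3T3 distal peaks, limb H3K4me2 at NIH3T3-only distal peaks was 3.42%, and the AP-1 difference was 3.55 points. With the NIH3T3 list shortened to the length of the limb list it was 36.4%, 76.7% and 16.0% in the limb and 29.4%, 57.4% and 12.0% in NIH3T3 cells. With promoter windows of 500 bp either side, 86.5% of promoter and 22.7% of distal limb peaks and 53.5% and 7.59% of NIH3T3 ones were shared. The AP-1 difference was 8.08 points over whole peaks and 8.13 points over 600 bp windows. Whole NIH3T3-only peaks are wider than limb-only ones, and the cause of the larger difference in 600 bp windows was not tested. The homeodomain values, the band of base composition and the shortened list for shared promoters were chosen after seeing the data. With that list, shared promoters over 50 percentile points higher were 167 toward the limb and 539 toward NIH3T3 cells, against 36 and 953. The order in which limb promoter peaks were shared most and NIH3T3 distal peaks least held in every alternative. Gene counts took peaks with 50% of their length in the promoter window, or within 500 bp of it, where those cut-offs are named.

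No paired analysis was possible because each group of 2 replicates has 1 list here, and for the same reason no replicate was left out. Read depth, antibody and cell number were not varied.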
